A study of Mus musculus with 3 samples.

Results

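Ad4BP/SF-1, the orphan nuclear receptor encoded by *Nr5a1*, was immunoprecipitated from mouse Leydig cells given vehicle or cAMP, and 1857 of the 4024 cAMP peaks on chromosomes 1 to 19 and X had no vehicle peak over any of their bases. These cAMP-only peaks are described here. They were chosen by their position alone: a cAMP peak that shared at least 1 bp with a vehicle peak was left out. A stricter set of 106 of them had a score of at least 100, out of 927 cAMP peaks of that score (11.4%). In the other direction, 3554 of the 5721 vehicle peaks (62.1%) had no cAMP overlap, against 46.1% of cAMP peaks without a vehicle overlap. At a score of at least 100, 488 of 1521 vehicle peaks (32.1%) had none. The Leydig cells were isolated on Percoll gradients from the testes of 10 male ICR mice 9 weeks of age, so each library stands for pooled animals. The vehicle group and the cAMP group had 1 library each and the same growth protocol in the labels. The dose and duration of the cAMP treatment for this experiment, and which mice gave which culture, are not given in the sources used here, and the input DNA library was not analysed here. With 1 library per condition there was no replicate error, and no gain of binding could be tested. Where the vehicle list has no peak, the vehicle library gave no call there, and absence of Ad4BP/SF-1 was not shown.

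Ad4BP/SF-1 binds DNA as a monomer, at a nuclear receptor motif preceded by a few further bases, and it drives the genes of steroid hormone synthesis in the gonads and the adrenal cortex. cAMP is the second messenger of luteinizing hormone in Leydig cells: it activates protein kinase A (PKA), and steroid output rises. Leydig cells take cholesterol from lipoproteins, from stored esters and from their own synthesis, and convert it to testosterone. The assay reads DNA occupancy and not RNA, so the levels of Leydig cell markers could not be checked. Of 9 Leydig cell identity genes, 4 had a vehicle peak within 10 kb of the gene and 1, *Cyp11a1*, had a cAMP-only peak there, where 19.4% and 6.42% of all protein-coding genes did. With an exact interval of 0.281% to 48.3%, the 1 of 9 cannot be told from that background.

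The consensus was spelled TCAAGGTC, TCAAGGCC, CCAAGGTC or CCAAGGCC and was searched on both strands. The sequences of the peaks on which the results below turn are shown first, read from the RefSeq genome of the mm10 build (GRCm38), with each copy of the consensus in capitals. The first set holds 8 of the 10 highest-scoring cAMP-only peaks with a consensus; those at *Sfi1* and near *Dazap2* are left out. Each is a stretch of the peak around the copy nearest to its centre, and other copies are shown where they lay in the same stretch. The stretches are chr9:61901842-61901901, plus strand for the peak near *Rplp1*; chr11:100513859-100513931, plus strand for *Acly*; chr7:64830616-64830675, plus strand for *Fam189a1*; chr11:114836978-114837131, plus strand for *Gprc5c*; chr12:21478931-21478990, plus strand for *Ywhaq*; chr4:117330913-117330972, minus strand for *Rnf220*; chr1:187669914-187669973, plus strand for *Esrrg*; and chr1:189293806-189293882, minus strand for *Kcnk2*. In the *Kcnk2* stretch the copy read GACCTTGG lies on the opposite strand.
Rplp1: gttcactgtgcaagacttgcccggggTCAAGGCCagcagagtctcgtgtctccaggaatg
Acly: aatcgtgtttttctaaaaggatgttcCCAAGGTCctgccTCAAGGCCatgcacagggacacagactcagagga
Fam189a1: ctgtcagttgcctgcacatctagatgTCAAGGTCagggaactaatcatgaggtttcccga
Gprc5c: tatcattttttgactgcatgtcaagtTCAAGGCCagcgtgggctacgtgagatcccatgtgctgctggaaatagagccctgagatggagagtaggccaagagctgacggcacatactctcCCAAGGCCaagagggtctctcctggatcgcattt
Ywhaq: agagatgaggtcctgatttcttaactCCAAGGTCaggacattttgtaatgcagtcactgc
Rnf220: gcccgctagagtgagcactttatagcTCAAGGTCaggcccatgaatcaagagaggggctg
Esrrg: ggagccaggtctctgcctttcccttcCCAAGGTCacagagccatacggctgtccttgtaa
Kcnk2: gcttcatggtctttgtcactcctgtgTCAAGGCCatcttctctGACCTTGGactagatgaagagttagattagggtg

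The second set comes from cAMP-only peaks at genes of cholesterol handling, steroid synthesis and hormone response. It was read from chr3:51391723-51391782, minus strand (*Mgarp*), chr1:156460422-156460481, plus strand (*Soat1*), chr9:40477699-40477871, minus strand (*Gramd1b*), chr9:58009119-58009178, plus strand (*Cyp11a1*), chr9:51954743-51954802, plus strand (*Fdx1*), chr15:10271391-10271450, minus strand (*Prlr*) and chr9:108687454-108687513, plus strand (*Prkar2a*). *Gramd1b* has 3 copies in 1 stretch, and the copy read GACCTTGA is on the opposite strand.
Mgarp: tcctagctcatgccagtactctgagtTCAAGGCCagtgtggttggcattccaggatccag
Soat1: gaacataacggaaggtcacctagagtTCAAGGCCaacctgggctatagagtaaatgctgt
Gramd1b: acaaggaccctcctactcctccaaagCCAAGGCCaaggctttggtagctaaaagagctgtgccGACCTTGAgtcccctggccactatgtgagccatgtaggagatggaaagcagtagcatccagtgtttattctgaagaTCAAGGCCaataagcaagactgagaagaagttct
Cyp11a1: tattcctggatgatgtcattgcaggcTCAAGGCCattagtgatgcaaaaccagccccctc
Fdx1: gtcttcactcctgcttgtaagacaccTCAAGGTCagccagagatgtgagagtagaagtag
Prlr: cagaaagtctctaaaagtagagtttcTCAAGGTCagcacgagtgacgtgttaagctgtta
Prkar2a: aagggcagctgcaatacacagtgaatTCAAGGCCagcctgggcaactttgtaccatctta

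Another set shows unlike cases. *Pi4kb* (chr3:94974155-94974214, minus strand) and *Wipi2* (chr5:142628633-142628799, plus strand) had the only cAMP-only peaks of score at least 100 within 1 kb of a transcription start site (TSS). The peak upstream of *Pim1* (chr17:29439501-29439667, plus strand) held 5 copies, the most of all cAMP-only peaks, of which 4 are shown in a tandem repeat. The last pair is the centre of strong cAMP-only peaks without a consensus, near *Wdr27* (chr17:14816146-14816215, plus strand) and *Cfap54* (chr10:93111557-93111626, plus strand).
Pi4kb: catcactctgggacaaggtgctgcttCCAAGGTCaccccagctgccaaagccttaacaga
Wipi2: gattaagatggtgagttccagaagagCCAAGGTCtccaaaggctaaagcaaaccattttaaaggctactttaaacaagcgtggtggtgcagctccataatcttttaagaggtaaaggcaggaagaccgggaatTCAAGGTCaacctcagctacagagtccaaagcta
Pim1: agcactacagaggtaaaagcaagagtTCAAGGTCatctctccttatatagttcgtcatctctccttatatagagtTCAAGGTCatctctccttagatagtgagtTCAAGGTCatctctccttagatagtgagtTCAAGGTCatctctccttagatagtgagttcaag
Wdr27: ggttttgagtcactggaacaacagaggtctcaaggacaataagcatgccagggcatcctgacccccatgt
Cfap54: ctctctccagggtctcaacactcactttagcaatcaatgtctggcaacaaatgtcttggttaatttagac

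The cAMP-only peaks were mostly peaks of low score. The score is the value that MACS gave each peak, which is -log10 of p multiplied by 10, and it rises with sequencing depth. Read numbers were not analysed here, so the depth is unknown. The lowest score in the cAMP list was 50.01. The median score of cAMP-only peaks was 58.7 (quartiles 53.5 and 70.1), and that of the 2167 other cAMP peaks was 84.1. A score from 50 to under 60 was held by 1013 cAMP-only peaks (54.6%; 95% exact Clopper-Pearson interval 52.3% to 56.8%), whereas 106 (5.71%; 4.70% to 6.86%) scored at least 100. All intervals of shares given here cover counting error only, and neighbouring peaks of 1 library are not replicates.

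The share of cAMP peaks without a vehicle overlap fell with the score in every class. It was 71.1% (68.7% to 73.5%) of 1424 peaks from 50 to under 60, 50.4% of 979 from 60 to under 75, and 35.3% of 694 from 75 to under 100. It was 17.9% of 397 in the class that starts at 100, and 4.08% (1.51% to 8.67%) of the 147 peaks of at least 200. Of the 100 top-ranked cAMP peaks, 3 were cAMP-only, and of the 100 top-ranked vehicle peaks 2 had no cAMP overlap. By score class the vehicle list had the same shape at a higher level, with 83.0% (81.1% to 84.8%) of 1609 peaks unmatched from 50 to under 60 and 49.7% (45.5% to 54.0%) of 557 in the class that starts at 100. The numbers of unmatched peaks depend on the depth of both libraries, whose part in these shares was not tested.

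**Figure D1:**
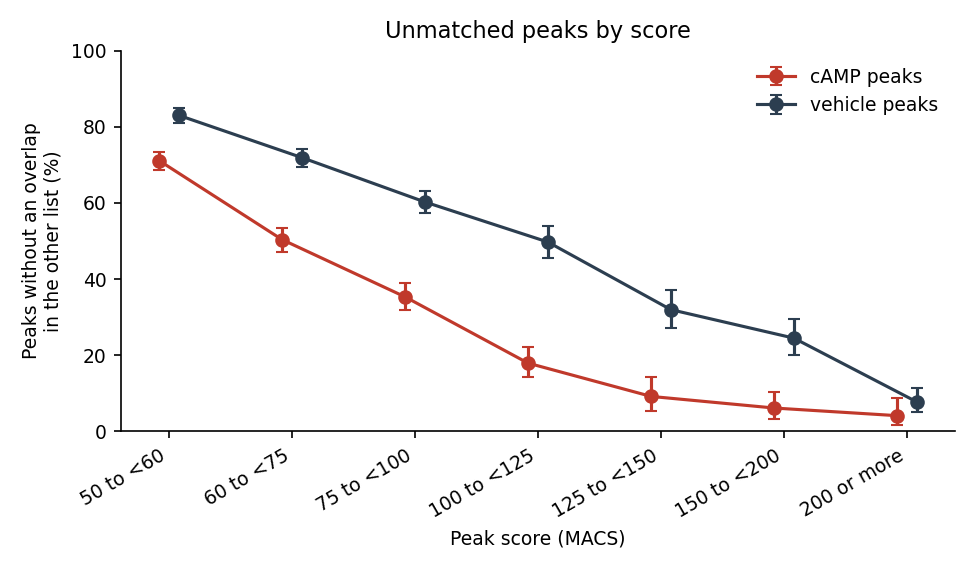
Share of peaks left unmatched by the other list (vertical axis, %) by class of MACS score (horizontal axis), for cAMP peaks (red) and vehicle peaks (dark). Points are shares and bars are 95% exact Clopper-Pearson intervals, which cover counting error only. The cAMP share falls from 71.1% to 4.08%, and the vehicle share lies above it in every class.

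The 106 stronger cAMP-only peaks had scores from 100.44 to 305, with a median of 116. The members just outside this set scored 99.77 (57.2 kb downstream of the *Cebpb* TSS), 99.74 at *Zfp184* and near *Thy1*, 99.70 near *Cacng6* and 99.61 near *Cited4*. Those just inside scored 100.44 at *Wnk1* and near *Gm10322*, 100.66 near *Nampt*, 100.67 at *Pld3* and 100.69 near *Nipbl*. The step across the threshold, from 99.77 to 100.44, was wider than the steps among these neighbours.

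The highest-scoring cAMP-only peak, with a score of 305, lay at chr9:61901533-61902113, 12.7 kb downstream of the TSS of *Rplp1*, which encodes a protein of the ribosomal stalk. It had 1 copy of the consensus, and the nearest vehicle peak was 233 kb away. The peak next in rank lay in an intron of *Acly* at chr11:100513612-100514204, 9.69 kb downstream of the nearest of several annotated *Acly* TSSs. Distances to a TSS are given here to the nearest TSS of any protein-coding transcript of the gene, and the annotated 5′ end of *Acly*, at position 100528000 of the chromosome, is farther away. *Acly* encodes ATP citrate lyase, which makes the cytosolic acetyl-CoA for cholesterol and fatty acid synthesis. This peak scored 257, its copies CCAAGGTC and TCAAGGCC were 5 bases apart, and the nearest vehicle peak was 84.4 kb away. A weaker cAMP-only peak, with a score of 53.6, covered the region 364 bp upstream of an *Acly* TSS, and no vehicle peak lay within 10 kb of the gene. *Acly* thus had 2 cAMP-only peaks and no other peak within 10 kb.

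The peak ranked next after these scored 241 in an intron of *Fam189a1*, and the nearest TSS was that of *Nsmce3*, a subunit of the SMC5/6 complex, 42.3 kb away. An intergenic peak of 207 lay 13.9 kb upstream of *Gprc5c*, an orphan receptor gene, with 2 copies. Another of 207 lay 61.3 kb upstream of *Ywhaq*, which encodes a 14-3-3 adaptor protein. Introns held the peaks of *Rnf220*, a ubiquitin ligase gene (194), of *Kcnk2*, which encodes a potassium channel (171), and of *Esrrg* (184). *Esrrg* encodes an orphan receptor of the oestrogen-related family, whose members bind sequences close to the Ad4BP/SF-1 consensus. Its strongest peak, chr1:187669584-187670289, had 4 copies and lay 139 kb from the nearest vehicle peak, which itself scored 195.

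The other peaks among the top 30 had scores from 128 to 209. Their nearest TSSs were those of *Sidt2*, *Sfi1*, *Dazap2*, *Wdr27*, *Arhgap35*, *Atad1*, *Zfp277*, *Cfap54*, *Gpatch8*, *Lima1*, *Mgarp*, *Prkag3*, *Far2*, *Mkln1*, *Ankrd13c*, *Tgfbr3*, *Fbxl7*, *Sh3kbp1*, *Tspan8*, *Msmo1*, *Pxdn* and *2010111I01Rik*. They belong to unlike functions. *Lima1* encodes an actin-binding protein, *Tgfbr3* a coreceptor of TGF-beta, *Prkag3* a regulatory subunit of AMP-activated kinase, and *Mgarp* a mitochondrial protein. The *Sfi1* peak was 7123 bp wide, far above the median width of 448 bp. Its width was shared by few: 9 cAMP-only peaks were wider than 1500 bp, among them one near *Cwc22* (5198 bp) and one at *1600014C10Rik* (5952 bp).

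The distance to the nearest vehicle peak, counted as bases between the edges, had a median of 95.4 kb over all 1857 cAMP-only peaks (quartiles 27.4 and 289 kb). It ran from 5 bp to 4259 kb. A vehicle peak lay within 1 kb of 41 of them (2.21%), within 10 kb of 237 (12.8%) and within 100 kb of 944 (50.8%). Tiles of the whole genome with the same width, 448 bp, had a median distance of 323 kb, and 4.22% of them lay within 10 kb. The stronger set of 106 had a median of 69.5 kb, with 15 peaks within 10 kb and 2 beyond 1000 kb. Vehicle peaks without a cAMP overlap had a median of 91.2 kb to the nearest cAMP peak.

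The smallest gaps show how near the rule's boundary some members lay. They were 5 bp 821 bp upstream of a *Suds3* TSS, 9 bp near *Gpatch3*, 13 bp near *Fam198b*, 48 bp at *Fggy* and 56 bp near *Ankrd40*. On the other side, the smallest overlaps among the other cAMP peaks were 57 bp near *Gse1*, 108 bp near *Spin1*, 118 bp near *Atp10a*, 155 bp near *Crispld2* and 192 bp near *Htr4*. The 237 peaks within 10 kb stood next to 229 different vehicle peaks, of which 91 also overlapped another cAMP peak. The vehicle peak scored higher than the cAMP-only peak in 157 of the 237 cases. Over all 1857 cAMP-only peaks, at any distance, the nearest vehicle peak scored higher in 1275.

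The farthest peaks of the stronger set were isolated from vehicle peaks by more than 500 kb. They lay in introns of *Lrp1b*, a lipoprotein receptor-related gene (2771 kb), and *Sh3kbp1*, an adaptor gene on the X chromosome (2718 kb). The next were 29973 bp upstream of *Cfap54* (864 kb), in *Pcsk5* (766 kb and 637 kb), upstream of *Atg4c* (747 kb), upstream of *Chst11* (665 kb) and *Mpp7* (652 kb), in *Fam189a1* (631 kb), and near *Cenpw* (523 kb). Only 8 cAMP-only peaks lay on the X chromosome, which had 23 cAMP peaks in all.

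**Figure D2:**
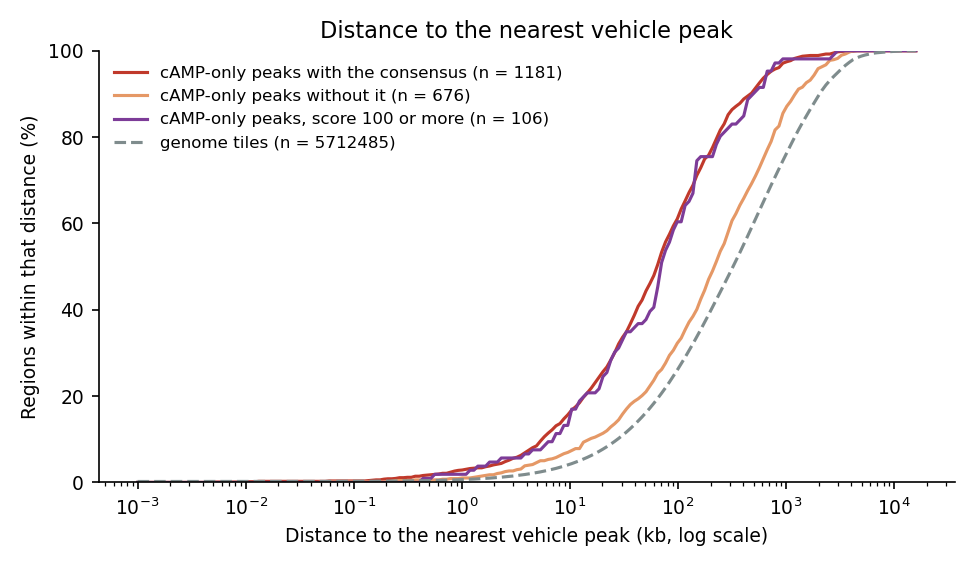
Share of regions (vertical axis, %) whose nearest vehicle peak lies within the distance on the horizontal axis (kb, log scale). Lines stand for cAMP-only peaks with the consensus anywhere in the peak (red, median 64.2 kb), without it (orange, 215 kb), cAMP-only peaks of score at least 100 (purple, 69.5 kb), and genome tiles of 448 bp (dashed, 323 kb). The peaks without the consensus lie between the other peaks and the tiles.

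The consensus was present in the central 300 bp of 1149 cAMP-only peaks (61.9%; 59.6% to 64.1%). It was present in 88 of the 106 stronger ones (83.0%; 74.5% to 89.6%), in 86.2% (84.7% to 87.7%) of the other cAMP peaks and in 73.1% (71.6% to 74.6%) of the vehicle peaks without a cAMP overlap. Of all 300 bp tiles of the genome 5.22% held it, and 6.83% of the tiles with a GC content within the quartiles of the cAMP-only peaks. The share in cAMP-only peaks minus that in other cAMP peaks was -24.4 percentage points (Newcombe 95% interval -27.0 to -21.7), and minus that in vehicle-only peaks it was -11.2 points (-13.9 to -8.59). The latter changed sign with the score: it was -17.0 points (-20.9 to -13.0) from 50 to under 60 and -6.73 (-11.7 to -1.94) from 60 to under 75, but 5.08 (-0.991 to 10.5) from 75 to under 100 and 7.40 (-1.62 to 14.6) at 100 and above, where both intervals span 0.

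The difference from other cAMP peaks was larger among the weak peaks. From 50 to under 60, 51.5% (48.4% to 54.6%) of cAMP-only peaks and 83.2% (79.2% to 86.7%) of the other cAMP peaks had the consensus, a difference of -31.7 points (-36.2 to -26.7). From 60 to under 75 the difference was -15.0 points (-20.2 to -9.67). From 75 to under 100, 82.0% and 87.3% had it, and the difference of -5.26 points had an interval that spans 0 (-11.2 to 0.217). At 100 and above it was -5.78 points (-14.3 to 0.629).

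The spellings kept the same order in both classes. TCAAGGTC was found in the central part of 31.3% of cAMP-only peaks and 46.9% of the other cAMP peaks, against 1.25% of genome tiles. TCAAGGCC was found in 20.6% and 26.6%, CCAAGGTC in 10.7% and 15.6%, and CCAAGGCC in 6.41% and 9.88%. As a share of all copies, TCAAGGTC made up 44.6% of the 1450 copies in cAMP-only peaks and 45.4% of the 2599 copies in the others. The base that follows the consensus was A in 85.0% (83.1% to 86.8%) and 84.0% (82.6% to 85.4%) of the copies. The position within the peak was alike as well. Copies lay a median of 44.5 bp from the peak centre in cAMP-only peaks and of 46 bp in the others, and 55.4% and 53.8% of copies lay within 50 bp. The classes thus differed in how many peaks had a copy more than in the spelling or place of the copies.

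**Figure D3:**
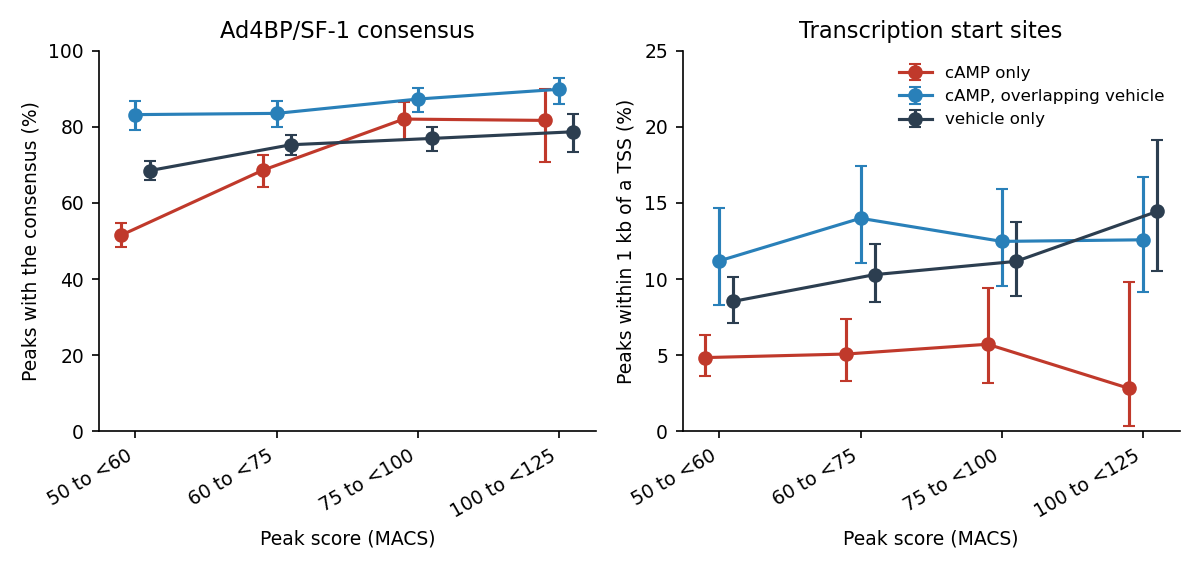
Share of peaks (vertical axes, %) with the consensus in the central 300 bp (left) and with the centre within 1 kb of a protein-coding TSS (right) by class of MACS score. Colours mark cAMP-only peaks (red), cAMP peaks that overlap a vehicle peak (blue) and vehicle-only peaks (dark), and bars are 95% exact intervals. On the left the red points rise from 51.5% to 82.0% and stand at 81.7% in the last class drawn, which starts at 100 (83.0% over all cAMP-only peaks of at least 100), and on the right they stay at or under 5.71%.

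**Figure D4:**
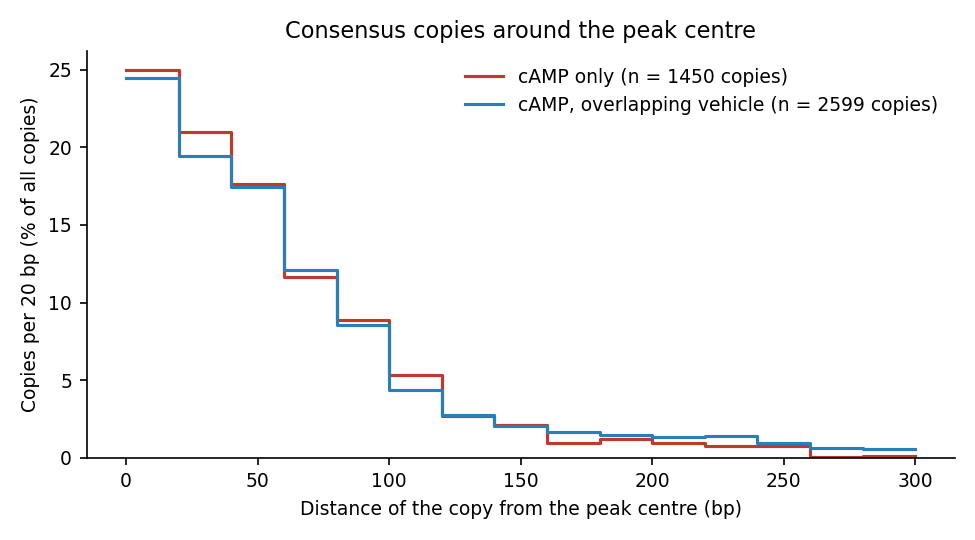
Consensus copies in 20 bp steps of distance from the peak centre (horizontal axis, bp), as a percentage of all copies of the class (vertical axis). The lines for cAMP-only peaks (red, 1450 copies) and other cAMP peaks (blue, 2599 copies) run together, with medians of 44.5 and 46 bp.

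Several copies in 1 peak were less common in cAMP-only than in other cAMP peaks. Of the 1857 peaks, 954 had 1 copy over their whole length, 190 had 2, 33 had 3, 3 had 4 and 1 had 5. More than 1 copy was found in 12.2% of cAMP-only and 25.6% of other cAMP peaks (difference -13.3 points; -15.7 to -11.0). At scores of at least 100 the shares were 18.9% and 32.4% (-13.5; -20.6 to -4.49), while from 75 to under 100 the interval of the difference spans 0 (-3.79; -9.89 to 2.76). In vehicle-only peaks the share was 17.6% over all scores (difference -5.36 points; -7.27 to -3.38), and at scores of at least 100 the interval of that difference spans 0 (-6.34; -13.8 to 2.90). The 5 copies near *Pim1* lay in a peak of score 88.1 at chr17:29439163-29439820, 51.3 kb upstream of the TSS of this kinase gene. *Kcnn3*, a potassium channel gene, had a peak with 4 copies and a score of 60.8. The peak 2.74 kb upstream of *Ren1*, the renin gene, had 3 copies and a score of 125.1.

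A total of 676 cAMP-only peaks held no copy anywhere in the peak. Their median score was 56.2, against 61.4 for the 1181 with a copy. They lay farther from vehicle peaks, with a median of 215 kb against 64.2 kb, and 7 of them had a vehicle peak within 1 kb. Outside protein-coding genes and TSSs lay 54.3% (50.4% to 58.1%) of them against 37.0% (34.2% to 39.8%). Within the score class from 50 to under 60 the medians were 254 kb and 65.1 kb, and from 75 to under 100 they were 63.8 kb and 63.0 kb. At scores of at least 100 they were 119 kb for 12 peaks without a copy and 68.6 kb for 94 with one. The medians thus lay apart at low scores and were alike only from 75 to under 100.

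The strongest peaks without a copy scored 209 in an exon of *Pafah1b2*, 10.7 kb upstream of *Sidt2*; 164 near *Wdr27*; 154 near *Cfap54*; 123 upstream of *Rreb1*; and 117 in an intron of *Mroh7*. The *Rreb1* peak held 1 copy of the 7-base form that leaves the first base free, and the other 4 did not. *Pafah1b2* encodes a catalytic subunit of platelet-activating factor acetylhydrolase, and *Rreb1* a zinc finger factor.

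Repeat sequence was present around many copies. In the stretches shown above, lower case marks the bases outside the copies and not repeats. The reference marks repeats in lower case, and 43.3% (40.7% to 45.9%) of the 1450 copies in cAMP-only peaks lay in such sequence, against 40.8% (38.9% to 42.7%) in other cAMP peaks, 34.5% (32.9% to 36.1%) in vehicle-only peaks and 38.7% of all 475556 copies in the genome. Of the TCAAGGTC copies in cAMP-only peaks 52.6% (48.7% to 56.5%) were in marked sequence, against 34.1% of those in the genome, whereas for CCAAGGTC the shares were 4.35% (2.10% to 7.85%) and 18.7%. For TCAAGGCC they were 60.4% (55.57% to 65.03%) and 63.1%, and for CCAAGGCC 13.1% (8.08% to 19.7%) and 18.9%, and both intervals hold the genome's share.

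Other motifs were searched in the central 300 bp, on both strands. The palindromic cAMP response element, TGACG with TCA directly after it, was found in 5 cAMP-only peaks (0.269%; 0.0875% to 0.627%), in 0.323% of the other cAMP peaks and in 0.163% of genome tiles. TGACG alone was found in 11.1% (9.70% to 12.6%), 13.2% and 7.25%. AP-1 sites, TGACTCA or TGAGTCA, were found in 11.4% (9.95% to 12.9%) of cAMP-only peaks, 14.5% of the other cAMP peaks, 17.9% (11.2% to 26.6%) of the stronger cAMP-only peaks and 4.66% of tiles. The AP-1 share of cAMP-only peaks minus that of other cAMP peaks was -3.13 points (-5.19 to -1.05), and at scores of at least 100 it was 3.06 points with an interval that spans 0 (-3.60 to 11.7). Against vehicle-only peaks the difference was 1.91 points (0.213 to 3.69) over all scores. By score class it was -0.805 (-3.23 to 1.69) from 50 to under 60, 2.39 (-0.668 to 5.79) from 60 to under 75, 6.73 (1.91 to 12.3) from 75 to under 100 and 9.73 (2.99 to 18.4) at 100 and above. The NR4A monomer site, AGGTCA with AA directly before it, was found in 2.15% (1.54% to 2.92%), 2.68% and 1.70% of cAMP-only peaks, other cAMP peaks and tiles. GATA sites, with A or T before these letters and A or G after them, were found in 38.6%, 39.7% and 50.5%, and CCAAT in 30.6%, 30.6% and 40.5%. The GC box GGGCGG was found in 4.63% (3.72% to 5.69%) of cAMP-only peaks and 7.98% (6.88% to 9.21%) of the other cAMP peaks. It was found in 9.06% of vehicle-only peaks and 2.86% of tiles. Against vehicle-only peaks the GC box difference was -4.43 points (-5.74 to -3.04) and the GATA difference -3.20 (-5.93 to -0.445) over all scores. The GATA interval spans 0 in each score class from 60 upward. For TGACG and the NR4A site the intervals over all scores span 0. Matches are letters only and do not show that a factor was bound.

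Few cAMP-only peaks lay at promoters. The centre lay within 1 kb of a protein-coding TSS for 90 of them (4.85%; 3.91% to 5.92%), against 12.0% (10.7% to 13.4%) of other cAMP peaks, 10.0% (9.05% to 11.1%) of vehicle-only peaks and 2.50% of genome tiles. Introns held 48.4%, exons 3.45% and the space between genes 43.3%, where other cAMP peaks had 50.9%, 3.18% and 33.9%. The difference between genes was 9.42 points (6.41 to 12.4) over all scores. It was 6.19 (-1.12 to 13.6) from 75 to under 100 and 4.03 (-5.45 to 14.1) at 100 and above, where both intervals span 0. The TSS share minus that of other cAMP peaks was -7.15 points (-8.84 to -5.46). Its interval lay below 0 in every score class: -6.36 points (-9.96 to -3.27) from 50 to under 60, -8.92 (-12.7 to -5.29) from 60 to under 75, -6.76 (-10.8 to -2.20) from 75 to under 100, and -9.08 (-11.8 to -3.95) at 100 and above. The median distance to the nearest TSS was 22.0 kb, against 12.7 kb for other cAMP peaks.

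Of the stronger cAMP-only peaks only 2 lay at a TSS. The peak of score 112 centred 510 bp upstream of *Pi4kb*, a phosphatidylinositol 4-kinase gene, and that of 109 centred 724 bp upstream of a TSS of *Wipi2*, an autophagy gene. Both had 2 copies of the consensus. Weaker promoter peaks included those of *Timp3*, which encodes an inhibitor of metalloproteinases (score 89.0), *Nfkbid*, an inhibitor of NF-kappa-B (83.9), *Ppib*, a peptidyl-prolyl isomerase gene (83.2), and *Sirt3*, the mitochondrial deacetylase gene (73.4). *Bdh1*, which encodes a ketone body enzyme, had one of 78.2, and *Slc25a5*, an adenine nucleotide carrier gene, one of 76.1. These 6 were named after their values were seen.

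Within 10 kb of the gene body, 1395 of 21728 protein-coding genes had a cAMP-only peak (6.42%), and 94 had one of score at least 100 (0.433%). For 845 genes (3.89%) there was a cAMP-only peak and no vehicle peak in that window, and 588 of the 1395 had no vehicle peak within 50 kb. A vehicle peak was within 10 kb of 4224 genes (19.4%). Genes with a cAMP-only peak were long, with a median of 47702 bp against 17429 bp over all genes, and genes with a vehicle peak were long as well, with a median of 33155 bp. The part of gene length in the counts of gene lists was not tested. A total of 1223 genes had 1 cAMP-only peak, 151 had 2, 15 had 3 and 6 had 4 or more. The largest count, 6, belonged to *Gm20388*, which the annotation stretches over 4.43 Mb and which had 54 vehicle peaks.

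Runs of cAMP-only peaks stood in some long genes. *Pcsk5*, which encodes a proprotein convertase, had 4 in its introns, with scores of 122, 57.4, 112 and 57.6. *Camk1d*, a calcium- and calmodulin-dependent kinase gene, had 4 from 52.7 to 76.2. *Lpp*, which encodes a focal adhesion protein, had 4 from 52.2 to 112, and *Stk32b*, a kinase gene, had 4 from 50.2 to 66.5. None of these 4 genes had a vehicle peak within 10 kb. *Lpgat1*, a lysophospholipid acyltransferase gene, also had 4, from 51.4 to 83.6 and within 21.03 kb, with 2 vehicle peaks near the gene. *Esrrg*, *Gramd1b*, *Etv6* and *Mt2* had 3 each, beside 2, 2, 6 and 1 vehicle peaks within 10 kb. Clusters of at least 3 cAMP-only peaks with gaps of no more than 20 kb numbered 8 and held 25 peaks, and all but 2 of the 8 had no vehicle peak inside. At the metallothionein genes *Mt1* and *Mt2*, which bind metal ions, 3 cAMP-only peaks spanned 14.5 kb, with scores from 61.5 to 110 and a copy of the consensus in each. This cluster was 1 of the 2 with a vehicle peak inside, which scored 52.5 and lay 1.15 kb from the strongest of the 3.

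The 22 gene lists held 325 different genes, of which 47 (14.5%; 10.8% to 18.8%) had a cAMP-only peak within 10 kb, against 6.42% of all genes. Of these 47, 5 had a peak with a score of at least 100 and 22 had no vehicle peak in the window. Of all genes, 0.433% had a cAMP-only peak of that score. Of all genes with a cAMP-only peak, 60.6% had no vehicle peak in the window. A vehicle peak was within 10 kb of 114 of the 325, against 19.4% of all genes. The median length of these listed genes was 28172 bp. The lists were chosen with earlier results of these data known, and no allowance was made for their number, so their counts and intervals are a description, to be read beside the 6.42% of all genes.

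Steroid synthesis had 3 of 13 genes with a cAMP-only peak (23.1%; 5.04% to 53.8%, an interval that holds the 6.42% of all genes), and 7 of the 13, these 3 among them, had a vehicle peak. *Cyp11a1*, which encodes the enzyme that makes pregnenolone from cholesterol, had 2, with a score of 87.1 at chr9:58008967-58009443 in the gene and 78.3 at 783 bp downstream of a TSS. The gene also had 2 vehicle peaks, the stronger with a score of 124. *Fdx1*, which encodes the ferredoxin that hands electrons to that enzyme, had a cAMP-only peak of 99.5 in an intron, 8.17 kb from the nearest vehicle peak. *Por*, the reductase gene of microsomal P450 enzymes, had one of 65.6 and 2 vehicle peaks, the stronger of 180.5. *Star*, *Cyp17a1*, *Hsd3b1*, *Hsd3b6* and *Hsd17b3* had none.

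Cholesterol uptake, storage and movement had 5 of 17 genes (29.4%; 10.3% to 56.0%, against 6.42% of all genes), and 8 of the 17 had a vehicle peak. *Mgarp*, also called *Hummr*, had a peak of 148 at chr3:51391576-51391937, 4.77 kb downstream of a TSS, with 1 copy and a vehicle peak 4.22 kb away. The gene had 2 vehicle peaks, the stronger with a score of 73.1. *Soat1*, which encodes the enzyme that stores cholesterol as esters, had a peak of 96.8 in an intron, and the nearest vehicle peak was 398.8 kb away. *Lrp1*, a lipoprotein receptor gene, had one of 54.2, *Stard5*, a sterol carrier gene, one of 53.7, and *Npc1*, the gene of lysosomal cholesterol export, one of 53.6. *Gramd1b*, outside the lists, encodes a carrier of cholesterol from the plasma membrane to the endoplasmic reticulum. The gene had 3, with scores of 123, 62.6 and 57.3, beside 2 vehicle peaks within 10 kb, the stronger with a score of 115.7.

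Cholesterol synthesis had 2 of 20 genes, with a score of 70.2 upstream of *Msmo1* and a peak in an intron of *Mvd*, 122 kb from the nearest vehicle peak. Of 8 genes of SREBP control, *Mbtps1*, whose protease cuts the SREBP precursors, had a peak of 103 in an intron, 1.36 kb from a vehicle peak. Acetyl-CoA supply and fatty acid synthesis had 5 of 16 genes (31.3%; 11.02% to 58.66%, against 6.42%), and 6 of the 16 had a vehicle peak. *Acly*, *Acaca*, an acetyl-CoA carboxylase gene (81.1), and *Elovl6*, an elongase gene (53.9), had no vehicle peak within 10 kb. *Acacb*, the other carboxylase gene (64.3), had 2 vehicle peaks, and its cAMP-only peak lay 306 bp from a vehicle peak of score 189. *Cs*, the citrate synthase gene (60.8), had 1 vehicle peak. Glycolysis had 3 of 16, *Pfkp* (67.5), *Pgam1* (62.9) and *Pfkm* (58.5), and NADPH supply had *Idh1* (51.1) of 8.

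The genes of cAMP synthesis, breakdown and PKA had 6 of 32 (18.8%; 7.21% to 36.4%, against 6.42%), and 12 of the 32 had a vehicle peak. The median length of these 32 genes was 108919 bp. *Prkar2a*, a regulatory subunit gene of PKA, had peaks of 92.3 and 57.1, the first 1.81 kb upstream of a TSS. *Prkaca*, the catalytic subunit gene, had one of 59.9, *Prkar1b* had 2 up to 59.7, and *Adcy9*, an adenylyl cyclase gene, had one of 54.9. The phosphodiesterase genes *Pde10a* and *Pde7b*, whose products break down cyclic nucleotides, had one each, of 75.6 and 57.4. *Pde7b* was the only one of the 6 without a vehicle peak within 10 kb. Of 14 CREB factors and coactivators, *Creb5* had one (65.2). Of 19 immediate-early genes, *Junb* had one (75.3), a peak that was also within 10 kb of *Prdx2* and at the TSS of *Rnaseh2a*.

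Other nuclear receptors had 6 of 39 genes (15.4%; 5.86% to 30.5%, an interval that holds 6.42%), and 16 of the 39 had a vehicle peak. Beside *Esrrg* the 6 were *Ppard* (81.4), *Esrrb* (66.8), *Nr3c2*, the mineralocorticoid receptor gene (64.4), *Rora* (54.6) and *Rorb* (50.4), while *Nr5a1* itself had none. Of the 6, only *Ppard* and *Rorb* had no vehicle peak within 10 kb. Gonadal transcription factors had 3 of 16 (18.8%; 4.05% to 45.6%, an interval that holds 6.42%). None of the 3 had a vehicle peak within 10 kb, as was so for 60.6% of all genes with a cAMP-only peak. *Cited2*, which encodes a coactivator, had peaks of 88.8 and 53.2 at 3.90 kb and 611 bp upstream of the TSS. *Gata6* (52.1) and *Dmrt1* (51.1) had one each. Of 20 receptor and growth factor genes of Leydig cells, *Prlr*, the prolactin receptor gene, had an intronic peak of 112 and another of 62.5, beside 2 vehicle peaks up to 152. *Fgfr2*, annotated over 2.96 Mb, had 3 up to 63.9 and 13 vehicle peaks. These 3 lay 371 to 499 kb from the nearest *Fgfr2* TSS, with their centres also over *Tacc2* or *Lhpp*. *Lhcgr* and *Insl3* had none.

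The remaining lists had few genes with a cAMP-only peak. Antioxidant enzymes had 3 of 18, *Prdx2* (75.3), *Cat* (65.3) and *Prdx3* (57.04). The hypoxia response had *Egln2* (61.6) and *Vhl* (59.1) of 12. The clock list had *Nfil3* of 15, a repressor gene with peaks of 80.7 and 60.3 upstream of it and no vehicle peak within 10 kb. Mitochondrial shape, movement and import had *Mgarp* of 16. Among markers of other testis cells, Sertoli cells and macrophages had 0 of 8 each, germ cells had *Stra8* of 8 (58.1), and endothelial and perivascular cells had *Pecam1* of 8, with peaks of 77.3 and 51.1. With 8 genes a count of 0 allows a share of up to 36.9% (exact interval).

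**Figure D5:**
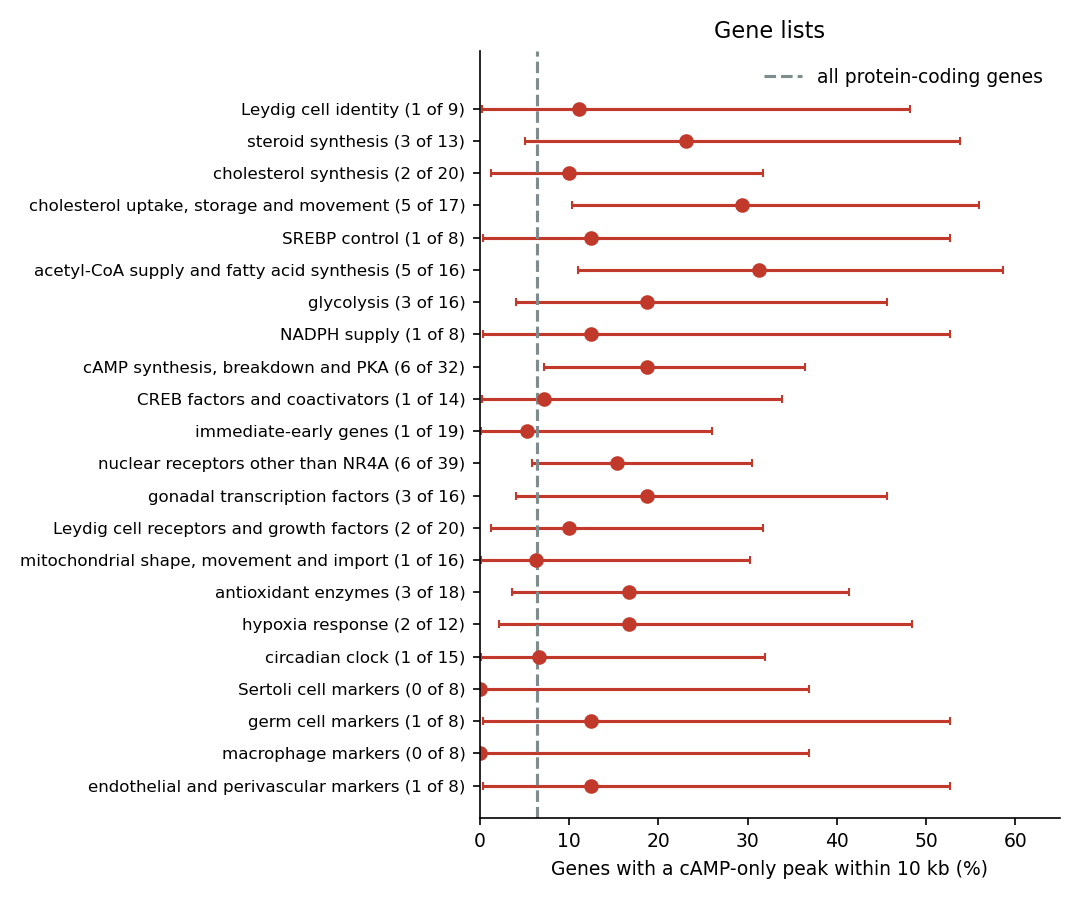
Share of genes in each list with a cAMP-only peak within 10 kb of the gene body (horizontal axis, %), with counts beside the names. Bars are 95% exact intervals and the dashed line is the share of all protein-coding genes, 6.42%. Shares run from 0 to 31.3% (5 of 16, acetyl-CoA supply and fatty acid synthesis), and the intervals are wide and mostly hold the dashed line.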

How the data were processed

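Chromatin of Leydig cells was immunoprecipitated with an antibody against Ad4BP/SF-1 and sequenced on the Illumina GAIIx. Bowtie (0.12.8 in the submitters' processing notes, which also name FastQC 0.11.5) aligned reads to mm10 with mismatches allowed, reads that hit several places were dropped, and MACS, run with its fragment model off, made the peak lists at a stated p of 0.001, a score of 30. The deposited score, per the authors' peak caller, is -log10 of p multiplied by 10, and no peak in the lists scored under 50. Whether the input served as control is not given in the sources used here. That exclusion can remove peaks in repeats. Fragment sizes differ between the methods and the sample records.

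Peaks on chromosomes 1 to 19 and X were compared in Python 3.11.15 (pandas 2.3.3, numpy 2.4.6). bedtools 2.31.1 gave the same 1857 cAMP-only peaks. Intervals came from scipy 1.17.1 (exact Clopper-Pearson) and statsmodels 0.14.6 (Newcombe), at the 95% level, and plots from matplotlib 3.10.9. Genes and TSSs were those of protein-coding transcripts in GENCODE M21, and entries that share a symbol were joined. Sequence came from RefSeq's GRCm38. The functions were tested on simulated peaks and sequences. No test between the conditions was run, since each had 1 library, and the background tiles covered every stretch of the genome without unknown bases. A place was TSS within 1 kb, then exon, intron or between genes.

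The cAMP-only peaks, gene lists and motifs were chosen with earlier results of these data known. Genes were named by rule: the nearest TSS of the 30 highest scores, list genes with a cAMP-only peak within 10 kb, the 10 farthest from a vehicle peak at a score of at least 100, the 10 genes with the most cAMP-only peaks, the 5 nearest cases on either side of the overlap and of the score of 100, stronger peaks at a TSS, the 5 strongest peaks without a consensus, and *Mgarp* and *Acly*. Other genes were named after their values were seen, as were *Gramd1b*'s role outside the lists, *Ren1*, *Pim1*, *Kcnn3* and the widest peaks. The comparisons within score classes were also added after the data were seen.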

Additional observations from a re-analysis of the deposited data

Results flagged for a closer look

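The cAMP list held 1 peak outside the chromosomes described here. It lay at chrY:7036754-7037007, was 254 bp wide and had a score of 78.36, and the vehicle list held 0 peaks on chromosome Y. It drew attention as a signal in data that the comparisons left out. It is given as a value, with no test.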

How the results depend on the processing

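No paired analysis was possible because each condition had 1 library, and no replicate could be left out. The number of cAMP-only peaks, 1857, stayed within 1816 to 2153 when a wider overlap was required, when vehicle peaks within 500 bp or 1 kb also counted, and when the vehicle list was shortened to the length of the cAMP list. It was 340 of the peaks of score at least 100 when both lists were held to that score, and 106 against all vehicle peaks. The median distance to a vehicle peak moved from 95351 bp to 69481 bp for the stronger peaks and to 424080 bp when only vehicle peaks of score at least 100 counted. The share at a TSS moved from 4.85% to 2.91% with 500 bp, 18.9% with 5 kb, 3.12% with the outermost 5′ end and 1.89% for the stronger peaks. The share with the consensus moved from 61.9% to 36.9% in the central 100 bp, 65.4% with 7 bases and 83.0% for the stronger peaks. The number of genes moved from 1395 to 3090 with 50 kb on either side and to 94 for the stronger peaks. The consensus share relative to other cAMP peaks moved from -24.4 points to -17.7 in the central 100 bp, and to -31.7, -15.0, -5.26 and -5.78 in the rising score classes. The TSS share relative to them moved from -7.15 points to -4.75 with 500 bp, -11.2 with 5 kb, -8.92 from 60 to under 75 and -9.08 at 100 and above. These differences from other cAMP peaks, in consensus and TSS share, kept their sign under the settings given. The AP-1 differences from other cAMP peaks and from vehicle-only peaks and the consensus difference from vehicle-only peaks changed sign between score classes. The causes were not tested. The unknown depth of 2 single libraries limits every count.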
